A study of Mus musculus with 6 samples.

Results

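The genes described here encode enzymes that finish the sugar chains of glycoproteins, glycolipids and proteoglycans in the Golgi. They were chosen by gene symbol alone: the sialyltransferases (St3gal, St6gal, St6galnac and St8sia), the galactosyl- and N-acetylgalactosaminyltransferases of the B3gal and B4gal families, the B3gnt N-acetylglucosaminyltransferases, the Chst sulfotransferases, the heparan sulfate enzymes Hs2st, Hs3st, Hs6st and Ndst, the numbered Galnt enzymes and the Fut fucosyltransferases. The symbols matched 102 of 24391 annotated genes. The match also takes a pseudogene by its name, Fut4-ps1, and an opposite-strand transcript, St8sia3os. No expression value entered the match, but the family itself was selected on values of this comparison, in which the log2 fold changes of Chst1 and St8sia1 were already known to be large. The calls of its members are therefore given as a description, and Chst1 and St8sia1 are given with no p-value.

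RNA was sequenced from mRPMaxKO, a mouse line (strains 129/SvJ and C57BL/6) grown from a RPMax-/- lung tumour, that is, one lacking Rb1, p53 and Max, a model of small cell lung cancer. There were 3 libraries with MAX restored and 3 control libraries. All came from a polyclonal population of the line that carried a doxycycline-inducible lentiviral vector, was selected with puromycin and was kept below passage 20. The labels give 4 days of doxycycline in the same words for both groups, and name neither the vector of the controls nor any separate culture for a library. The spread behind each p-value is therefore that of these libraries and may be technical. Each MAX restored library held between 10253303 and 11925909 counts, and each control library between 10046899 and 10425210. Max itself had 15979, 14933 and 13369 counts in the MAX restored libraries, against 639, 691 and 620 in the controls. Control library 1 stood apart from the other controls (chi-square per degree of freedom 8.91 and 10.2, against 1.24 to 1.46 between MAX restored libraries), and the ribosomal precursor Rn45s took 0.996% of its counts, against 0.109% to 0.187% in every other library. Markers of the neuroendocrine cell type, 15 genes, summed to between 8366 and 8548 CPM, counts scaled to library size, with MAX restored and between 8175 and 8430 CPM in controls. The 10 fibroblast markers summed to between 6.47 and 7.49 CPM with MAX restored and between 4.79 and 5.15 CPM in controls, with Lum at 0 throughout, and the 8 immune markers to between 2.497 and 3.42 CPM with MAX restored and between 1.49 and 2.95 CPM in controls, with Cd3e at 0. The 6 endothelial markers, almost all Vwf, summed to between 419 and 454 CPM with MAX restored and between 528 and 582 CPM in controls, with Cdh5 at 0, and the 8 lung markers to between 35.1 and 41.2 CPM with MAX restored and between 36.9 and 38.9 CPM in controls. The part of these markers in the results below was not tested. In bulk RNA, fewer cells that make a transcript and less of it per cell cannot be told apart.

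Sialic acid and sulfate are the main negative charges of the cell surface. Sialyltransferases place sialic acid at the ends of chains, where lectins and antibodies bind it, and the sialic acid-bearing glycolipids called gangliosides are abundant in neural and neuroendocrine tissue. Sulfotransferases place sulfate along heparan, chondroitin and keratan sulfate, and the positions of the sulfates set which growth factors and enzymes those chains bind.

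Of the 102 members, 70 had enough counts to be tested. In edgeR's quasi-likelihood test, adjusted by Benjamini-Hochberg over the 12664 genes that entered it, with calls at 0.05, 36 members were higher with MAX restored and 15 lower, and 19 did not pass. Without control library 1 the counts were 35 higher and 16 lower. Among all genes tested 31.2% were higher and 32.3% lower, 63.5% in all, and among the members tested 51.4% were higher and 21.4% lower. In 40 members every MAX restored library was above every control and in 14 below, where 33.2% and 33.8% of all genes tested were. The median log2 fold change was 0.21 over the 70 members and -0.00 over all genes tested. A difference of at least 2-fold was seen in 11 members that were higher and 2 that were lower, where 6.15% and 2.38% of all genes tested were. Since earlier results of the same comparison led to the choice of the family, nothing is read from these shares. Chst1 and St6galnac5 passed the filter on low counts through the MAX restored libraries alone and so had to differ. Hs3st1 had 1 control library over the filter's cutoff, and B3galt2 and B3gnt6 had 2. The controls alone would not have passed them, so they too entered the test through the MAX restored libraries.

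**Figure D1:**
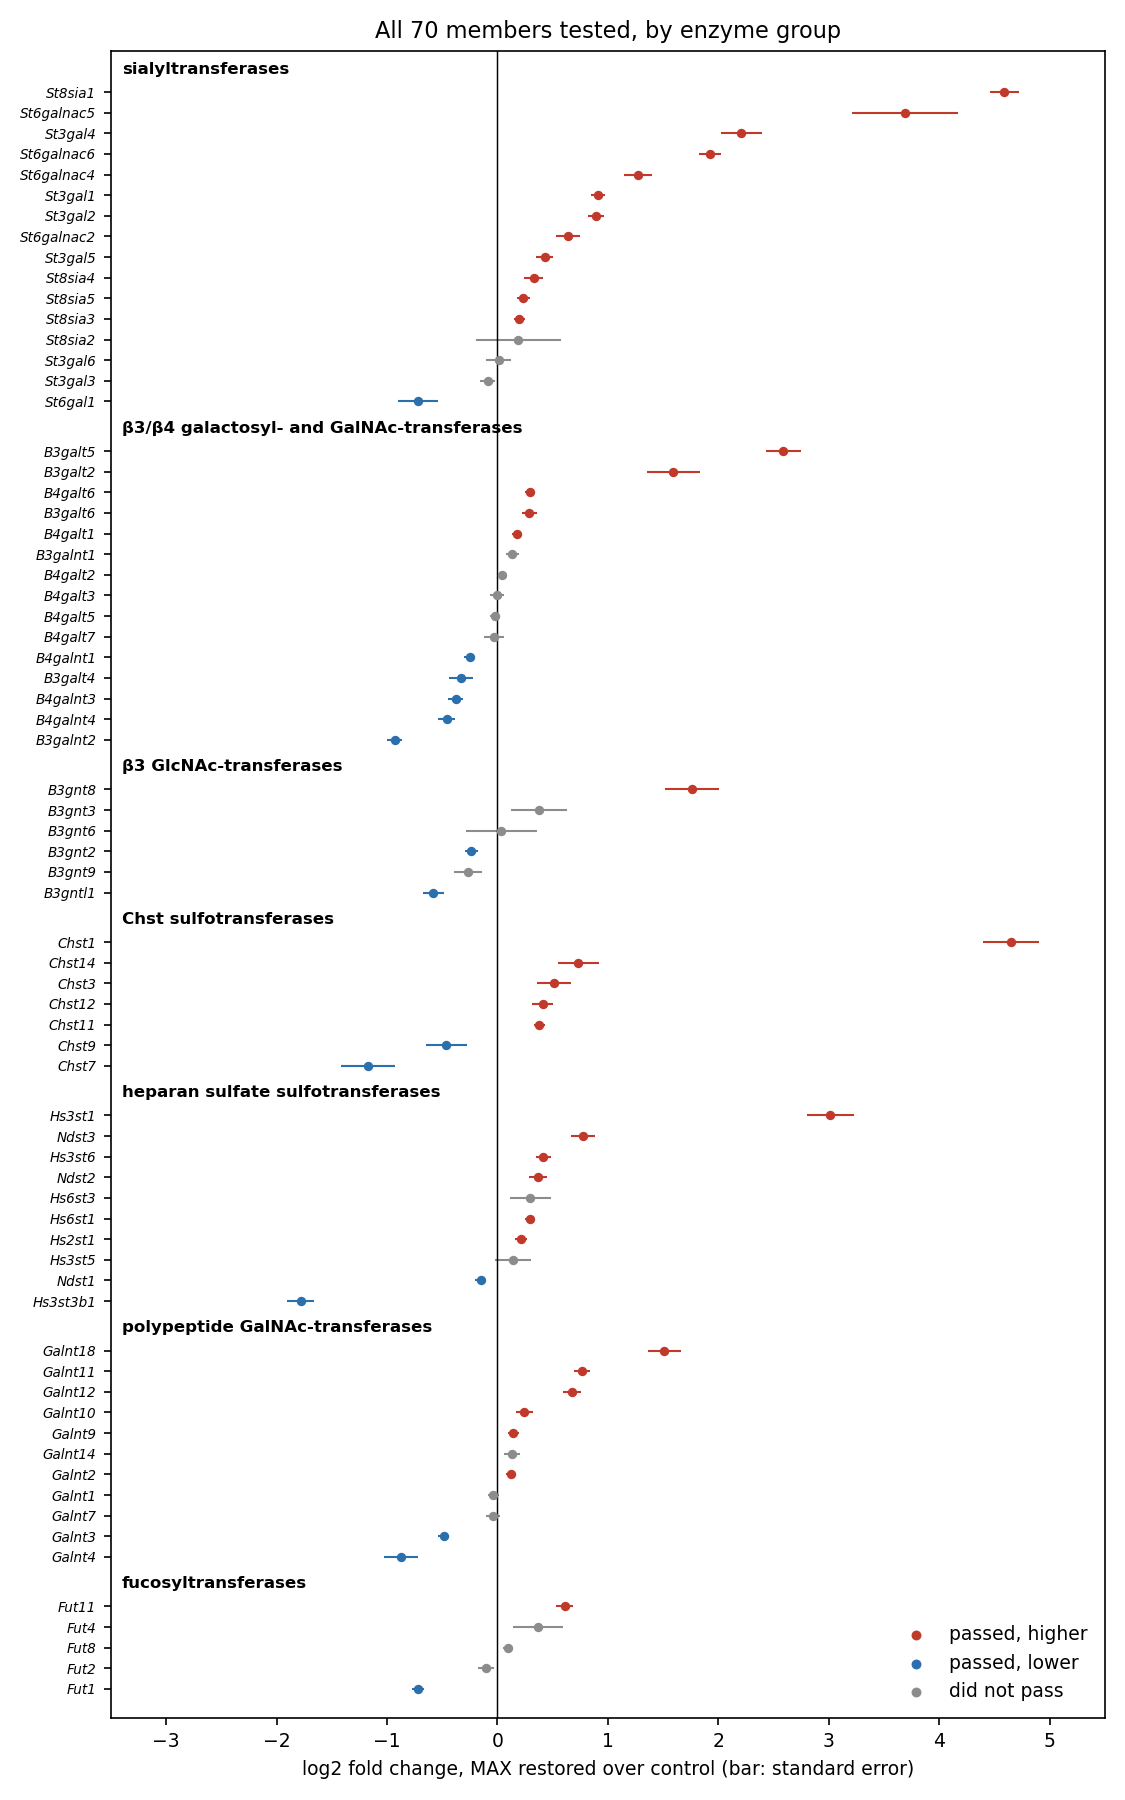
Log2 fold change (MAX restored over control) of the 70 members tested, by enzyme group, with the standard error as a bar. Red points passed and were higher, blue points passed and were lower, grey points did not pass. St8sia1 and Chst1 lie furthest to the right, at 4.59 and 4.65, and Hs3st3b1 furthest to the left, at -1.78.

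**Figure D2:**
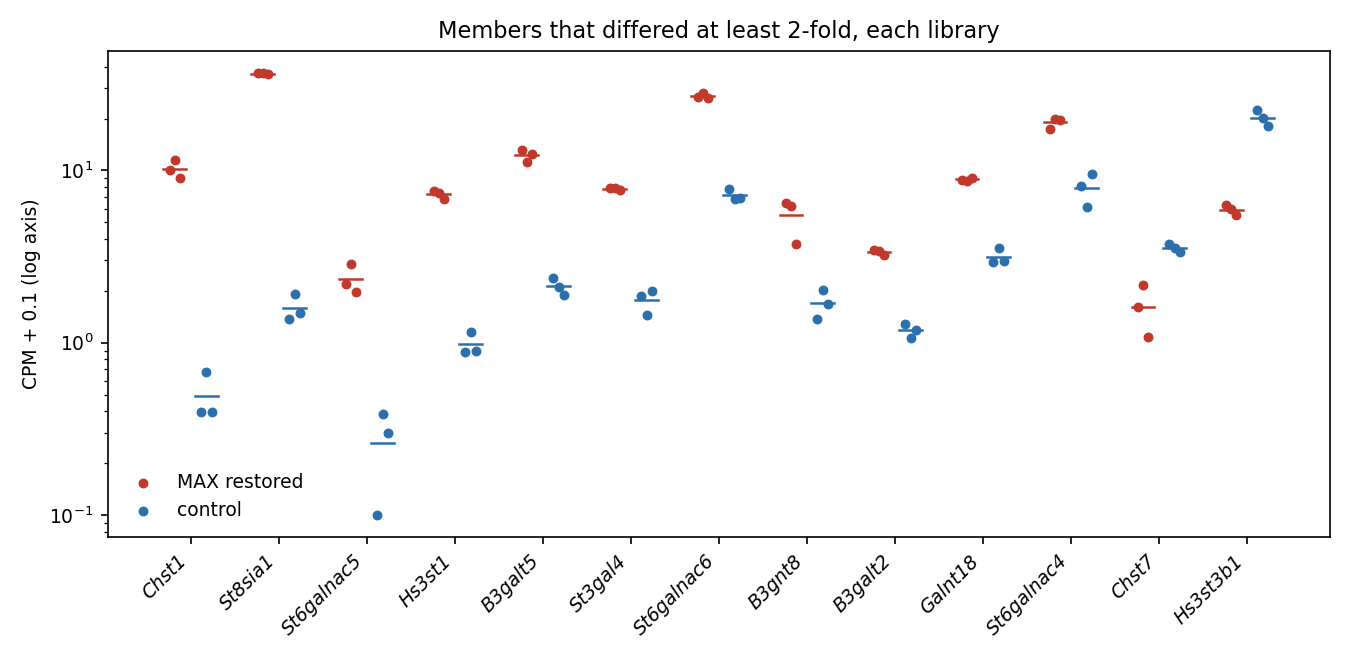
CPM plus 0.1, on a log axis, of the 13 members that passed and differed at least 2-fold, in each MAX restored library (red, left) and control library (blue, right), with the group mean as a line. The groups do not overlap for any of the 13, where 67.1% of all genes tested did not overlap. The 13 were chosen from these same data for a large called difference, so nothing is read from this.

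**Figure D3:**
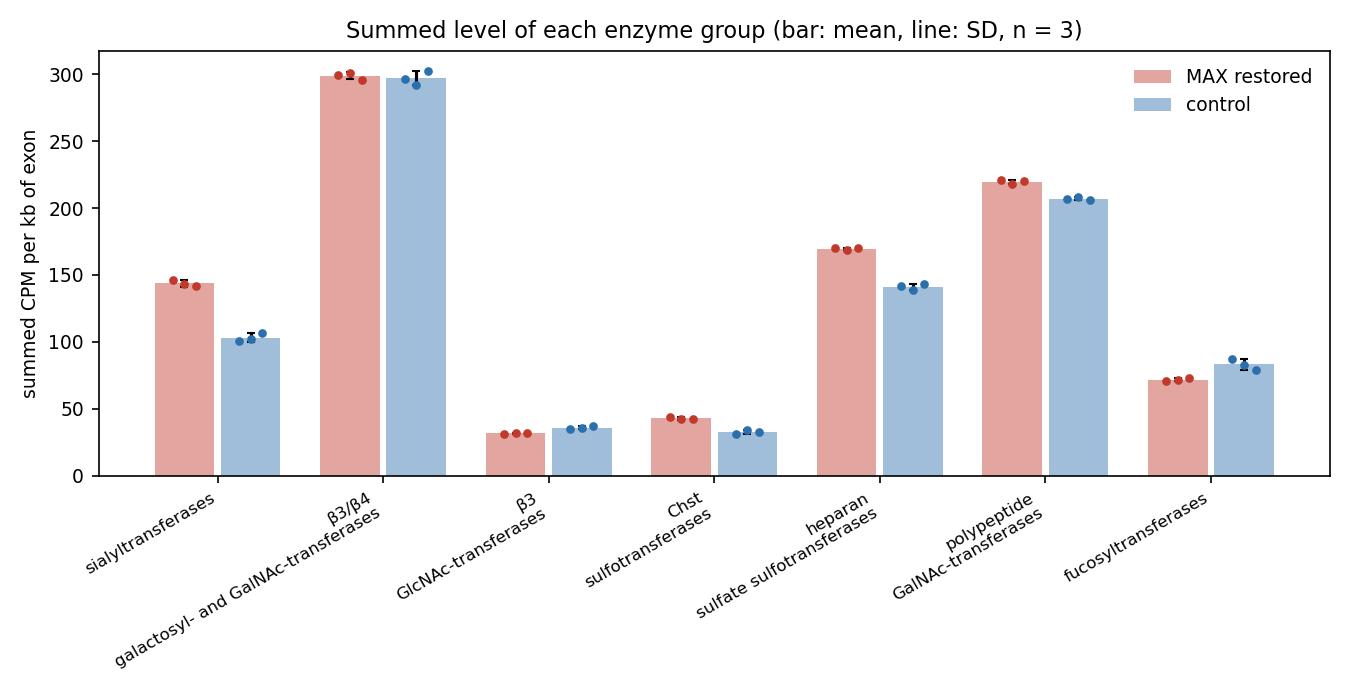
Summed level of each enzyme group, in CPM per kb of annotated exon, as the mean of 3 libraries with SD, and each library as a point. Sialyltransferases summed to 144 with MAX restored and 103 in controls, whereas the galactosyl- and GalNAc-transferases summed to 299 and 297. St8sia3os is counted with the sialyltransferases and Fut4-ps1 with the fucosyltransferases.

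The bases just before the start of 5 members are shown. St8sia1 and Chst1 had the largest rises and Hs3st3b1 the largest fall. The others are B3galt5 and B3galt2. Among members that differed at least 2-fold and had a promoter sequence, only B3galt5 and B3galt2 hold the E-box CACGTG, which MAX dimers bind. No promoter sequence was found for Galnt18 and St6galnac5, which also differed at least 2-fold. The sequences are from RefSeq on GRCm38.p6, a later build than the mm9 of the counts, and run 5′ to 3′ over the 250 bases before an annotated start, in lower case with CACGTG in capitals. They lie at chr6:142964453-142964702 (minus strand) for St8sia1, chr2:92600867-92601116 (plus) for Chst1, chr16:96273263-96273512 (plus) for the middle of 3 annotated starts of B3galt5, chr1:143640447-143640696 (plus) for B3galt2 and chr11:63922285-63922534 (minus) for Hs3st3b1.
St8sia1: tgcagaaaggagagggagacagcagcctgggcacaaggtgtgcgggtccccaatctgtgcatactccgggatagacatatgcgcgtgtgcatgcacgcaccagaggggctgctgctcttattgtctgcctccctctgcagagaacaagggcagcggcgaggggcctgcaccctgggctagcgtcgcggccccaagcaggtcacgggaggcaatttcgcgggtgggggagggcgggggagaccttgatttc
Chst1: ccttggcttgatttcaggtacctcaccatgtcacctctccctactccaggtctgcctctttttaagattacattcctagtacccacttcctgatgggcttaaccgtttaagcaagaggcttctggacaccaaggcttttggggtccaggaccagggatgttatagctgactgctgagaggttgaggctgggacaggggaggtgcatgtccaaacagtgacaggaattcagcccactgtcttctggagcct
B3galt5: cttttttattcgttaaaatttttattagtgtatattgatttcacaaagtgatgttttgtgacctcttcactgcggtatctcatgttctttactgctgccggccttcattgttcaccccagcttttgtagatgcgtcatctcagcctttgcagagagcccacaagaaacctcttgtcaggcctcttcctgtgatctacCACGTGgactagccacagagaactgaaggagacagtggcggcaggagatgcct
B3galt2: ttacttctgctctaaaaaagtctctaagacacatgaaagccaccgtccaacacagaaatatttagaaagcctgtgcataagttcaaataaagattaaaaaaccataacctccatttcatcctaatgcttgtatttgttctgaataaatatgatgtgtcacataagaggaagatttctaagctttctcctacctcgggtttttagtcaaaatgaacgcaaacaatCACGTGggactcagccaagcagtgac
Hs3st3b1: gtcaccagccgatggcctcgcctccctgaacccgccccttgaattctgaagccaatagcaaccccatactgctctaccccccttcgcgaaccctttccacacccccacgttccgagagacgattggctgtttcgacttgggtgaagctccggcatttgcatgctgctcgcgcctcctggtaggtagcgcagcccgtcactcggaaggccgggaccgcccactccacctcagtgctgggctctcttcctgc

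The motif began 53 bases before that start of B3galt5 and 26 bases before the start of B3galt2. It is its own reverse complement, so one search covers both strands. Windows were found for 76 members, and 7 of them, 9.21%, held CACGTG in at least 1 window, against 6.86% of the 27025 genes in the table. Among the members with a window it was present in 4 of 25 that were higher (B3galt2, B3galt5, Chst14 and Galnt9), in 0 of 10 that were lower, in 0 of 15 that did not pass and in 3 of 26 that were not tested (B3gnt7, Hs3st3a1 and St6galnac3). The letters were not present in the windows of St8sia1, Chst1 and Hs3st3b1. A match is a description of these letters, not of binding.

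Of 21 sialyltransferase genes, with the opposite-strand transcript St8sia3os counted among them, 16 were tested. Of these 12 were higher with MAX restored, 1 was lower and 3 did not pass. St8sia3os was not tested. Among all genes tested 31.2% were higher and 32.3% lower. The counts of each enzyme group below are to be read beside these shares. The 12 include St8sia1, whose value led to the choice of the family, and St6galnac5, which had to differ to be tested. The summed level of all 21, St8sia3os included, was taken in CPM per kb of exon so that genes of different length can be added. It was 147, 143 and 142 in the MAX restored libraries, against 100, 102 and 107 in controls. All MAX restored libraries thus lay above all controls.

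Along the ganglioside route the largest difference was in St8sia1, of the step that adds a second sialic acid. The value of St8sia1 led to the choice of the family, so nothing is read from this rank. Ugcg, which starts all glucose-based glycolipids and is outside the family, fell by 0.38 on the log2 scale (SE 0.06). Of the 2 lactosylceramide synthases, B4galt6 rose 1.22-fold, to 233 ± 4.78 CPM with MAX restored against 190 ± 3.66 CPM in controls (SD, n = 3 each), and B4galt5 did not pass (log2 -0.02, SE 0.04). St3gal5, which makes the simplest ganglioside GM3, rose 1.35-fold (log2 0.43, SE 0.08).

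St8sia1 encodes GD3 synthase, which adds the second sialic acid to GM3 and opens the series that leads to GD2, a surface antigen of small cell lung cancer and neuroblastoma. It had 434, 412 and 369 counts in the MAX restored libraries, against 13, 19 and 14 in controls. That is 36.5, 36.7 and 36.1 CPM with MAX restored, against 1.28, 1.82 and 1.39 CPM in controls. The libraries within each group lay close together and the groups were far apart. St8sia1 led to the choice of the family by its large difference here, so nothing is read from this separation. The log2 fold change was 4.59 (SE 0.13), or 24.1-fold. Per kb of exon St8sia1 was the 12th of 16 sialyltransferases tested with MAX restored and the 15th in controls, so after a large change it was still at 4.05 CPM per kb, against 0.166 in controls. It shares 149 exonic bases, 1.66% of its length, with Gm7457 on the opposite strand. In mm9 it spans chromosome 6 from 142770061 to 142912972, on the minus strand.

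The enzymes that extend GM3 and GD3 split. B4galnt1, which makes GM2 and GD2 and was abundant, fell to 99.9 ± 2.13 CPM with MAX restored, against 119 ± 6.19 CPM in controls (log2 -0.25, SE 0.05). B3galt4, which adds the next galactose, fell to 9.17 ± 0.473 CPM with MAX restored, against 11.5 ± 0.497 CPM in controls (log2 -0.33, SE 0.11), but it did not pass without MAX restored library 2 (log2 -0.28, edgeR adjusted p = 0.0618). St3gal1 and St3gal2, which cap that galactose on glycolipids and on O-glycans, rose 1.88-fold and 1.86-fold. St3gal2 stood at 10.5 CPM per kb with MAX restored and 5.66 in controls. The other enzymes that add sialic acid to sialic acid on gangliosides and glycoproteins, St8sia5 (log2 0.23, SE 0.06) and St8sia3 (0.20, SE 0.05), rose by less. Per kb St8sia5 was the most abundant sialyltransferase over the 6 libraries, at 24.7 CPM per kb with MAX restored and 21.0 in controls.

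Of the family that sialylates N-acetylgalactosamine, or the sugar next to it, 4 of 6 genes were tested, and these 4 were higher. St6galnac5, which makes ganglioside GD1alpha, had 25, 31 and 19 counts with MAX restored, against 0, 3 and 2 in controls. The fitted fold was 12.9, and 20.4 without control library 2. St6galnac6 had 26.6, 28.1 and 26.2 CPM with MAX restored, against 7.68, 6.71 and 6.83 CPM in controls (log2 1.93, SE 0.10, edgeR adjusted p = 2.59e-12). St6galnac4 had 17.4, 19.8 and 19.4 CPM with MAX restored, against 7.98, 6.04 and 9.41 CPM in controls (log2 1.27, SE 0.13, edgeR adjusted p = 4.13e-08). These last genes lie head to tail on the plus strand of chromosome 2 in mm9, with 12 bases between the end of St6galnac4 at 32455216 and the start of St6galnac6 at 32455229, so reads of one transcript that ran into the other could not be told from its own. St6galnac2, an O-glycan enzyme, rose 1.56-fold. Summed over its 6 genes this family stood at 25.8 ± 1.67 CPM per kb with MAX restored and 11.0 ± 0.659 in controls (SD, n = 3 each).

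**Figure D4:**
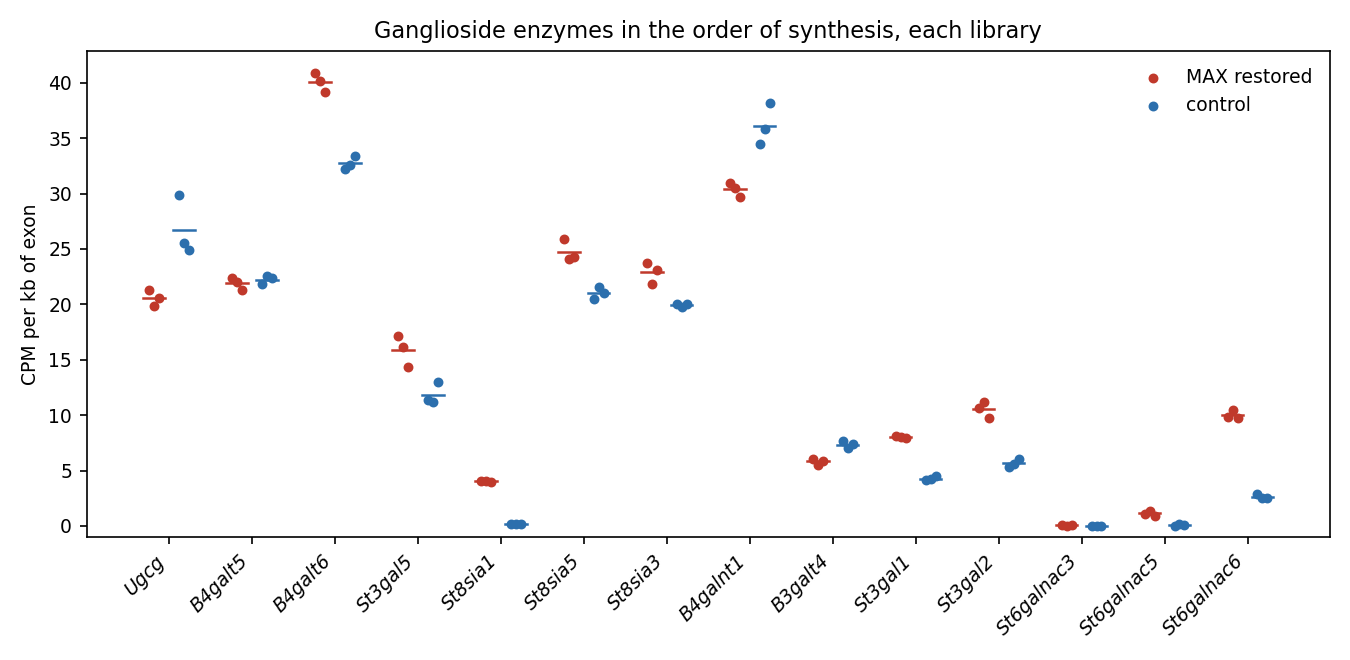
Level in CPM per kb of exon of ganglioside enzymes, ordered by step of synthesis from left to right, in each MAX restored library (red, left) and control library (blue, right), with the group mean as a line. St8sia1 stands at 4.05 against 0.166, while B4galnt1 is at 30.4 against 36.1.

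Sialyltransferases of N-glycans went in both directions. St3gal4, which caps galactose on N-glycans and O-glycans, had 93, 87 and 78 counts with MAX restored, against 18, 14 and 19 in controls. It rose 4.63-fold (log2 2.21, SE 0.18, edgeR adjusted p = 2.47e-09), and shares 4.09% of its exonic bases with 4930581F22Rik on the opposite strand. St6gal1, which caps the same galactose in another linkage, fell to 3.43 ± 0.590 CPM with MAX restored, against 5.67 ± 0.840 CPM in controls (log2 -0.72, SE 0.18), and was the only 1 of the 16 tested that fell. St3gal3 (log2 -0.09, SE 0.07) and St3gal6 (0.01, SE 0.11) did not pass. Of the polysialic acid synthases of the neural cell adhesion molecule, St8sia4 rose by 0.33 (log2, SE 0.08) and St8sia2, at 1.10 CPM with MAX restored and 0.949 CPM in controls, did not pass (log2 0.19, SE 0.38).

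Among the 18 galactosyl- and GalNAc-transferases of the B3gal and B4gal families, 15 were tested, of which 5 were higher and 5 lower. B4galt2, with the highest level per kb in the group, stood at 54.7 CPM per kb with MAX restored and 53.2 in controls and did not pass (log2 0.04, SE 0.05). B4galt1, the main N-glycan galactosyltransferase, rose 1.13-fold, and B4galt3 did not pass. Of the pair that builds the linker from which heparan and chondroitin sulfate grow, B3galt6 rose 1.22-fold and B4galt7 did not pass (log2 -0.03, SE 0.09). B3galt6 lies on chromosome 4 among neighbours that were also higher, whose median (25 tested genes on each side) was 0.28 on the log2 scale, against its own 0.29.

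The large differences in this group were in 2 genes of low level. B3galt5, which makes type 1 chains, the carriers of Lewis a in humans, had 156, 125 and 127 counts with MAX restored, against 23, 21 and 18 in controls. Its log2 fold change was 2.59 (SE 0.16, edgeR adjusted p = 3.62e-11). B3galt2, another galactosyltransferase of that linkage, had 40, 37 and 32 counts with MAX restored, against 12, 10 and 11 in controls (log2 1.59, SE 0.24, edgeR adjusted p = 1.02e-05). It needed the MAX restored libraries to pass the filter on low counts, so its p-value is not read as support. Every MAX restored library lay above every control for B3galt5 and B3galt2, as for 33.2% of all genes tested. Both were named for a large called difference, so nothing is read from this. The 4 other genes that fell, beside B4galnt1, were B3galt4 (above), B3galnt2, B4galnt3 and B4galnt4. B3galnt2, which extends the O-mannose glycan of dystroglycan, fell to 20.4 ± 0.457 CPM with MAX restored, against 38.9 ± 0.975 CPM in controls (log2 -0.93, SE 0.07), and shares 8.77% of its exonic bases with Tbce on the opposite strand. B4galnt3 (-0.38, SE 0.07) and B4galnt4 (-0.46, SE 0.08) are the enzymes that add GalNAc in place of galactose.

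In the B3gnt group 1 of 6 tested genes was higher and 2 were lower. B3gnt8, which with B3gnt2 elongates branched N-glycans, had 76, 69 and 37 counts with MAX restored, against 13, 20 and 16 in controls. MAX restored library 3 lay below the other 2 of its group, though above all controls. The log2 fold change was 1.76 (SE 0.25, edgeR adjusted p = 4.05e-06). B3gnt2, the main polylactosamine enzyme and the most abundant of the group, fell to 50.3 ± 2.45 CPM with MAX restored, against 59.2 ± 3.03 CPM in controls (log2 -0.24, SE 0.06). B3gntl1 fell by 0.58 (log2, SE 0.09) and shares 8.52% of its exonic bases with Tbcd on the opposite strand. B3gnt3 did not pass (log2 0.38, SE 0.25), in a part of chromosome 8 where its neighbours had a median of 0.40.

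All 7 tested Chst genes passed, 5 higher and 2 lower, where 63.5% of all genes tested passed. The 7 include Chst1, whose value led to the choice of the family and which had to differ to be tested. Chst1, which sulfates galactose in keratan sulfate, had 119, 128 and 91 counts with MAX restored, against 3, 6 and 3 in controls. The log2 fold change was 4.65 (SE 0.26). Per kb Chst1 was the lowest of the 7 in controls, at 0.145 CPM per kb, and the third with MAX restored, at 3.77. Chst1 lies on chromosome 2 of mm9 from 92439864 to 92455409, and its neighbours had a median log2 fold change of 0.10.

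Both tested chondroitin sulfotransferases for the 4-O position rose. Chst11, the most abundant Chst gene, stood at 18.7 CPM per kb with MAX restored and 14.4 in controls (log2 0.38, SE 0.05), and Chst12 20.8 ± 0.769 CPM with MAX restored and 15.7 ± 1.53 CPM in controls (log2 0.41, SE 0.09). Chst14, which sulfates dermatan, rose 1.66-fold. Of the 2 genes for the 6-O position, Chst3 rose 1.42-fold (log2 0.51, SE 0.16) and Chst7 had 18, 23 and 10 counts with MAX restored, against 37, 36 and 33 in controls. Chst7 fell by 1.17 on the log2 scale (SE 0.24, edgeR adjusted p = 0.000336). Summed, the genes for the 6-O position stood at 1.72 ± 0.229 CPM per kb with MAX restored and 2.29 ± 0.109 in controls, and those for the 4-O position at 30.4 ± 0.649 CPM per kb with MAX restored and 23.2 ± 1.04 in controls. Chst9, a GalNAc sulfotransferase of N-glycans, passed as lower (log2 -0.46, SE 0.19), but its groups overlapped. It did not pass without control library 2 (log2 -0.34, edgeR adjusted p = 0.164), MAX restored library 2 (-0.47, adjusted p = 0.0785) or MAX restored library 3 (-0.27, adjusted p = 0.207).

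Of 10 heparan sulfate sulfotransferases tested 6 were higher and 2 lower. Hs6st1, the most abundant per kb, had 237 ± 4.02 CPM with MAX restored and 194 ± 5.37 CPM in controls (log2 0.29, SE 0.04). Hs2st1, the only 2-O enzyme, rose 1.16-fold. Of the Ndst genes, which start the modification of the chain by putting sulfate on its nitrogen, Ndst2 rose 1.29-fold and Ndst3 1.71-fold, while Ndst1, the most abundant, fell by 0.15 (log2, SE 0.05). The call for Ndst1 was lost without control library 3 (log2 -0.12, edgeR adjusted p = 0.0583) and without MAX restored library 2 (-0.13, adjusted p = 0.0568).

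The 3-O-sulfotransferases, which finish the chain and make rare binding sites, moved in opposite directions. Hs3st1, which makes the site for antithrombin, had 89, 82 and 69 counts with MAX restored, against 8, 11 and 8 in controls. It rose 8.08-fold (log2 3.01, SE 0.21, edgeR adjusted p = 2.64e-10). Hs3st1 needed the MAX restored libraries to pass the filter on low counts, so its p-value is not read as support. Hs3st3b1, which makes the site that herpes simplex glycoprotein D binds, had 74, 66 and 55 counts with MAX restored, against 228, 208 and 182 in controls. It fell by 1.78 on the log2 scale (SE 0.12, edgeR adjusted p = 1.25e-10). The groups did not overlap for either gene, where 67.1% of all genes tested did not overlap. Both genes were named for a large called difference, so nothing is read from this. Hs3st3b1 and its close relative Hs3st3a1 are nearly identical in the enzyme domain, so reads of either may be lost from the count, and Hs3st3a1 had 2 counts with MAX restored and 2 in controls. Hs3st6 was by far the most abundant of the 3-O genes, at 32.1 CPM per kb with MAX restored and 24.0 in controls, and rose 1.33-fold. The summed 3-O level was 39.1 ± 1.07 CPM per kb with MAX restored and 29.4 ± 0.971 in controls (SD, n = 3 each), so most of it was Hs3st6 in both groups.

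**Figure D5:**
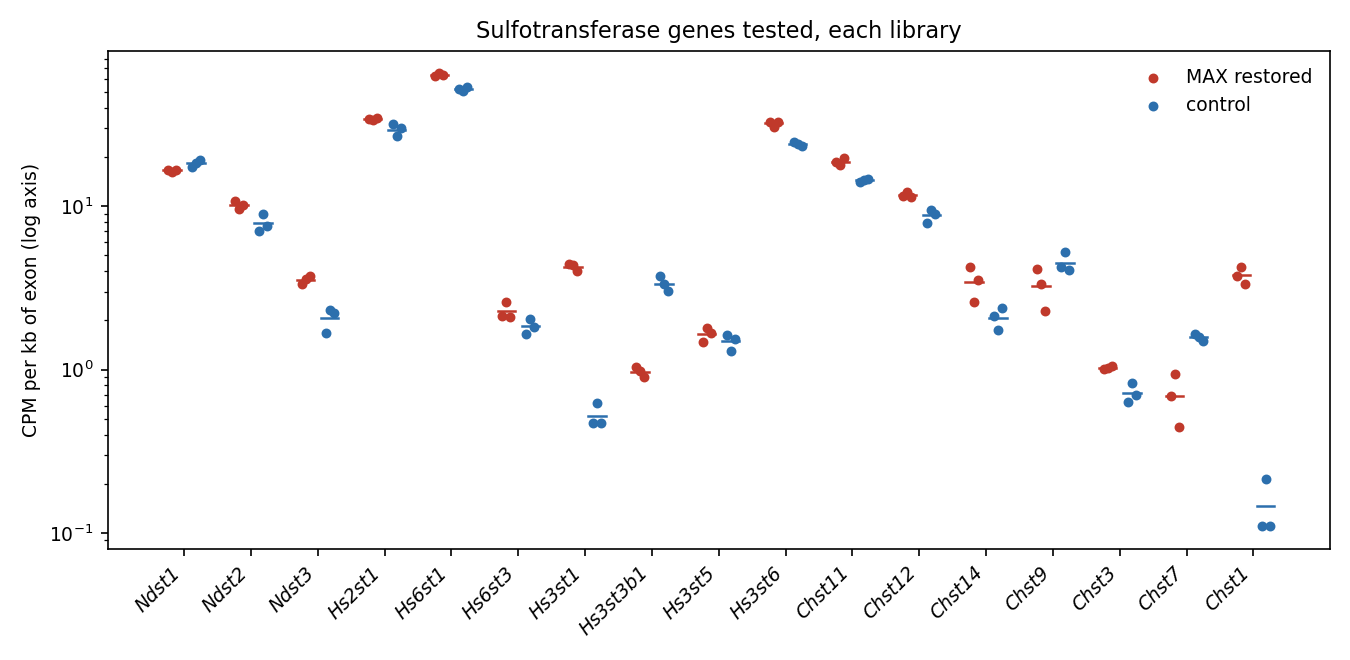
Level in CPM per kb of exon, on a log axis, of the 17 sulfotransferase genes tested, in each MAX restored library (red, left) and control library (blue, right), with the group mean as a line. Hs3st1 and Hs3st3b1 move in opposite directions and Chst1 stands at 3.77 against 0.145.

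The Galnt enzymes attach the first sugar of mucin-type O-glycans. Of 11 tested 6 were higher and 2 lower. Galnt2, the most abundant member of the whole family per kb, had 268 ± 0.882 CPM with MAX restored and 246 ± 17.0 CPM in controls (log2 0.12, SE 0.05). That call was lost without control library 1 (log2 0.07, edgeR adjusted p = 0.0667) and without any 1 of the MAX restored libraries (adjusted p between 0.0564 and 0.0651). Galnt18 had 104, 96 and 92 counts with MAX restored, against 29, 36 and 29 in controls (log2 1.51, SE 0.15, edgeR adjusted p = 4.63e-08). Galnt11 (log2 0.76), Galnt12 (0.68) and Galnt10 (0.24) rose too, each with a SE of at most 0.08. Galnt9 rose by 0.14 (log2, SE 0.05), a call lost without control library 1 (0.09, adjusted p = 0.102) and without MAX restored library 3 (0.13, adjusted p = 0.0666). Galnt3 fell 1.40-fold and Galnt4 1.83-fold, and Galnt1, Galnt7 and Galnt14 did not pass.

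Of 5 fucosyltransferases tested 1 was higher and 1 lower. Fut1, which makes the H antigen and was the most abundant, had 66.0 ± 2.08 CPM with MAX restored and 109 ± 9.55 CPM in controls (SD, n = 3 each; log2 -0.72, SE 0.06, edgeR adjusted p = 1.43e-09). Fut2, a neighbour with the same activity, did not pass (log2 -0.11, SE 0.07), nor did Fut8, which adds the core fucose of N-glycans (0.09, SE 0.04), and Fut4 (0.37, SE 0.22). Fut11 rose 1.53-fold.

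The remaining 32 members were not tested. Chst15, Fut9, Hs6st2 and St6gal2 had 0 counts in all 6 libraries, which allows up to 0.0468 CPM over them (3 counts, a limit for counting error only, as the labels name no molecular identifiers). The other 28 had few. Of the 12 with at least 10 counts, 6 had CPM values that did not overlap between the groups, and of all 1952 such genes outside the test 29.5% did. Nothing is read from so few. Chst5, a keratan sulfate enzyme, had 3, 1 and 7 counts with MAX restored and 0 in all controls. That is 3.37-fold higher with the control group set to a floor of 3 counts. The counting error of the other group is left out, so this is not a lower limit. B4galt4 had 0 counts with MAX restored against 1, 6 and 3 in controls, or 3.62-fold lower with the MAX restored group set to the same floor, again not a limit. Galnt5 summed to 35 counts with MAX restored against 10 in controls, B4galnt2 to 6 against 19, Galnt6 to 6 against 17 and Chst10, of the HNK-1 epitope, to 14 against 18. With no filter 98 members entered the test, 39 were higher and 17 lower. The 5 added calls were Chst5, Galnt5 and Hs3st2, higher, and B4galt4 and B4galnt2, lower.

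Other genes of the same pathways were described from lists of 129 genes, of which 126 were in the annotation and 104 tested. Of these 41 were higher and 28 lower, 39.4% and 26.9%, beside 31.2% and 32.3% of all genes tested. The lists' counts below are to be read beside the same shares. Among suppliers of activated sugars and sulfate 4 were higher, 9 lower and 7 did not pass, of 20 tested (median log2 fold change -0.12, over all genes -0.00). Nans, which makes sialic acid 9-phosphate, fell to 91.8 ± 5.38 CPM with MAX restored, against 141 ± 0.461 CPM in controls (log2 -0.62, SE 0.05), and Gmds, of the fucose donor, fell by 0.40 (SE 0.05). Gne, the first enzyme of sialic acid synthesis, fell by 0.28 (SE 0.05), and Cmas, which activates sialic acid, and its transporter Slc35a1 did not pass (log2 -0.00 and -0.11). Papss1, which makes the sulfate donor, rose by 0.42 (SE 0.05). Gne, Cmas and Slc35a1, and Ugcg above, were named for their place in these routes, after their values were seen.

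Makers of glycosaminoglycan chains were higher in 7 and lower in 4 of 21. Has3, a hyaluronan synthase, had 64.3 ± 2.01 CPM with MAX restored and 26.3 ± 1.39 CPM in controls (log2 1.29, SE 0.06), and Xylt1, which starts the chains, rose by 0.63 (SE 0.10). The epimerases of dermatan and heparan, Dse and Glce, fell by 0.87 (SE 0.14) and 0.75 (SE 0.05). Other Golgi transferases were higher in 13 and lower in 6 of 31. The highest were A4galt (3.48-fold, log2 SE 0.35) and the sulfotransferase Gal3st3 (log2 1.75, SE 0.17). The lowest were Gcnt4 (log2 -1.67, SE 0.30) and the Notch-modifying Mfng (-0.66, SE 0.05). A4galt, with 8, 6 and 4 counts in controls, passed the filter on low counts through the MAX restored libraries alone. Gcnt4, with 9, 6 and 9 counts with MAX restored, passed it through the controls alone. A4galt and Gcnt4 so had to differ. Sialidases and genes of ganglioside breakdown were higher in 5 and lower in 5 of 13. The sialic acid esterase Siae rose by 0.86 (SE 0.07) and Psap by 0.40 (SE 0.03), while Neu2 fell by 1.10 (SE 0.26) and Glb1 by 0.66 (SE 0.10). Neu2, with 9 counts in MAX restored library 3, needed the controls to pass the filter on low counts.

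Proteoglycan core proteins, which carry the sulfated chains, were higher in 12 and lower in 4 of 19 tested (median log2 0.37), with 10 of 29 not tested. Hspg2, the basement membrane proteoglycan perlecan, had 104, 81 and 88 counts with MAX restored, against 4, 6 and 8 in controls (log2 3.78, SE 0.24). Its neighbours had a median of 0.38. Hspg2 passed the filter on low counts through the MAX restored libraries alone and so had to differ. Spock3 had 117 ± 0.735 CPM with MAX restored and 26.2 ± 2.46 CPM in controls (log2 2.16, SE 0.06). Col18a1, another basement membrane proteoglycan, had 384 ± 2.66 CPM with MAX restored and 612 ± 9.98 CPM in controls (log2 -0.67, SE 0.03), and Spock2 fell by 0.50 (SE 0.07).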

How the data were processed

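RNA-seq counts of 3 MAX restored and 3 control libraries were used. The deposited values are raw read counts per gene symbol. Per the file headers the authors counted with featureCounts 1.6.0, without strand, over UCSC mm9 exons, with no option for reads that map to several places or genes, so overlapping and near-identical genes can lose or share reads. The submitters' processing notes also name STAR 2.5.2a and bcl2fastq 1.8.4. 

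Groups came from the labels. edgeR 4.0.16 in R 4.3.3 was run on all genes, with filterByExpr at a minimum count of 10 (12664 of 24391 genes kept), TMM scaling, the quasi-likelihood test on group only, two-sided, and Benjamini-Hochberg adjustment over all genes tested. CPM uses library sizes after TMM. Standard errors are the coefficient over the square root of F. Neighbour medians use 25 tested genes on each side in mm9 order. Alternatives used DESeq2 1.42.0, limma 3.58.1, other scalings and filters, the replicate number as a block, and leaving out each library. The fit was tested on simulated data. The members and lists were chosen with earlier results of these data known. Named members were those called and at least 2-fold different, the one with the highest level per kb in each group, and untested ones with at least 10 counts and no overlap. From each pathway list the 2 largest called changes in each direction were named, except 1 that is not reported here.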

Additional observations from a re-analysis of the deposited data

How the results depend on the processing

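In the main fit 36 members were called higher and 15 lower. Under other scalings, filters, DESeq2, limma voom and the replicate block these counts stayed between 36 and 39 and between 13 and 17. Requiring an absolute log2 fold change of at least 0.5 cut them to 20 and 7, the pathway genes from 41 higher and 28 lower to 18 and 8, and all genes from 8040 to 3094; that rule is stricter by construction. Leaving out each library gave between 35 and 38 members higher, 13 and 16 lower, 38 and 41 pathway genes higher, 22 and 28 lower, and 7258 to 8252 genes in all. The members' median ranged from 0.19 to 0.23 and Max from 4.36 to 4.41. Of 259 alternative values of 20 named members 255 kept direction and call, and the other 4 were Galnt2 with 1 library left out. Of the 20, 13 were named for a large called difference in these same counts. That choice favoured the agreement in advance, so no support is read from it. DESeq2 did not call B3galt4 (adjusted p = 0.0732) or Chst9 (0.0874). B3galnt1 passed with RLE scaling (0.0467), a minimum count of 30 (0.0290) and without control library 3 (0.0431), Fut8 passed with that minimum (0.0371), and B3gnt9 passed without control library 1 (0.0343) or MAX restored library 2 (0.0269). The labels do not say that the numbers pair libraries, and same-numbered libraries correlated between -0.02 and 0.04. With the replicate block 36 members were higher and 15 lower, and no member changed its call. Genes with few counts, such as St6galnac5, are limited by depth.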
